A study of Mus musculus with 20 samples.

Results

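The Hox genes of the gut were followed across whole mouse colon and small intestine, adult and fetal, with and without Spdef. Members were all non-control array probes whose gene name in the files is Hox, a letter a to d and a number, which gave 50 probes of 41174 for 38 genes of 27573. Of these 38 genes, 29 were bright enough to be tested, among 18957 genes tested in all. Hoxb1, Hoxb8, Hoxc5, Hoxc8, Hoxc10, Hoxc12, Hoxc13, Hoxd1 and Hoxd12 were not, because in every group and genotype at least 1 array failed to show their probes well above background.

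Hox genes encode homeodomain transcription factors that lie in 4 clusters, named A to D. Along the trunk and the gut their order in a cluster follows the region in which they are expressed, and genes of like number in different clusters are paralogs. In the hindgut, posterior members such as Hoxa13 and Hoxd13 are known for their part in patterning the distal gut and its surrounding mesoderm. Spdef is an Ets family transcription factor that acts in the maturation of goblet and Paneth cells.

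Pools were adult colon KO and wild type (3 pairs), adult small intestine KO and wild type (2 pairs), both at P30 (postnatal day), and fetal colon KO and wild type (2 pairs) and fetal small intestine KO and wild type (3 pairs), both at E18.5 (embryonic day). KO pools lacked Spdef in the whole animal, per the labels, and the allele and strain are not given in the sources used here. Each pool held RNA of the whole organ from 2 to 3 littermates, and each KO pool was hybridized against a wild type pool on 2 arrays with the dyes exchanged, so 20 arrays gave 10 pairs. Levels are log2 intensities of one channel, averaged over both arrays of a pair, and were compared only within a probe. In whole organs, fewer cells of a type and less RNA per cell cannot be told apart.

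Channels had 39.8% to 71.6% of their probes well above background. Spdef was lower in the KO pool in 9 of 9 counted pairs. Fetal small intestine pairs 1 and 2 differed by less than the noise between arrays (variance ratios of 0.655 in KO and 0.653 in wild type pools) and were counted as 1 pair. Adult colon pairs 1 and 3 also had ratios under 1 (0.721 and 0.72), where 1 array of pair 1 was dim and noisy, but correlated at 0.955 and 0.953 across genes, against 0.999 for the fetal pairs, and were kept apart. The pairs of slide label 5639, labelled fetal small intestine 3 and fetal colon 1, went against their labels, as described at the end, and stand outside every comparison. This left 1 pair in each fetal group, and the fit assumes that fetal pools vary like adult ones. The mean level of 22 small intestine epithelium genes was 8.45 to 8.74 in adult colon, against 13.84 to 14.08 in adult small intestine, and 9.51 to 9.59 in fetal colon, against 12.79 to 12.87 in fetal small intestine. That of 18 colon epithelium genes was 12.73 to 13.26 in adult colon, against 9.55 to 9.91 in adult small intestine. It was 9.74 to 10.01 in fetal colon, against 9.13 to 9.23 in fetal small intestine. Between the fetal wild type organs, 3 of these 18 were higher in colon and 2 were lower.

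Promoters of 3 Hox genes that differed between the organs are shown because their genes carry the organ difference. They are from RefSeq (GRCm38.p6), as the 250 bases before a start, and Hoxa10 has 2 starts in the table. The table held 24 promoters of 22 Hox genes and none of Hoxb9, Hoxb13 and Hoxc6. Capitals mark TTTATG and TTTATT, hexamers of the kind bound by Cdx factors, and TCGTAAA and CAATAAA, of the kind bound by posterior Hox factors, on either strand.
Hoxa7, chr6:52218574-52218823, minus strand: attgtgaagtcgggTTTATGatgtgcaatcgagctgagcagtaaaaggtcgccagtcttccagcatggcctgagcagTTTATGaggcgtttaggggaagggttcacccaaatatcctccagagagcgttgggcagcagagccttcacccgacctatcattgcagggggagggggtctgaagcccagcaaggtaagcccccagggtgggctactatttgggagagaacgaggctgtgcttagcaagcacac
Hoxa10, chr6:52234940-52235189, minus strand: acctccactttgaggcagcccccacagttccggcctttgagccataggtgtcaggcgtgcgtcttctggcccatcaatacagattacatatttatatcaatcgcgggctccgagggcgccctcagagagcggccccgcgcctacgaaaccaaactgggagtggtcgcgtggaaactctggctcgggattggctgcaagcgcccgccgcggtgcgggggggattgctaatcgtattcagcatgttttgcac
Hoxa10, chr6:52240855-52241104, minus strand: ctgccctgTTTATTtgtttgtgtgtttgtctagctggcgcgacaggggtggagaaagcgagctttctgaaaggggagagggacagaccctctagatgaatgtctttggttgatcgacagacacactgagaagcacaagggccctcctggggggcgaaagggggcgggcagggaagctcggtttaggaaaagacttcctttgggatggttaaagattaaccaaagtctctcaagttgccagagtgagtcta
Hoxd13, chr2:74667975-74668224, plus strand: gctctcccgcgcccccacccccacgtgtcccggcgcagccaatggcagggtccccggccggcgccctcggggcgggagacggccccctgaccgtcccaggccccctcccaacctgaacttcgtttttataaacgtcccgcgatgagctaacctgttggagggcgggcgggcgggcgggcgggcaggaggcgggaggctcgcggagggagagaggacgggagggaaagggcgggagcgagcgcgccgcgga

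The Hoxa7 window held TTTATG at 2 places, 1 Hoxa10 window held TTTATT once, and the other Hoxa10 window and the Hoxd13 window held none of these 4 motifs. TTTATG was found in 20.8% of the Hox promoters, against 10.8% of all 32851 promoters of the same length, and TTTATT in 20.8%, against 18.1%. The TTTATG promoters were those of Hoxa7, Hoxb8, Hoxd3, Hoxd4 and Hoxd11, of which only Hoxa7 was called between the organs. TCGTAAA was found in 4.17% of Hox promoters, against 0.478%, and CAATAAA in 4.17%, against 4.2%. Each of these Hox shares is 1 of 24 promoters, that of Hoxb8, which was too dim to be tested. The general promoter motifs TATAAA and CCAAT were in 16.7% and 58.3% of Hox promoters, against 12.4% and 33.8% of all. These shares are a description of letters, and TTTATT and CAATAAA can overlap.

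In adult wild type animals, 8 of the 29 Hox genes were higher in colon than in small intestine and 1 was lower, where 5.17% of all genes were called higher and 4.65% lower (limma, Benjamini-Hochberg adjusted p under 0.05). The 8 were Hoxa7, Hoxa9, Hoxa10, Hoxa11, Hoxa13, Hoxb9, Hoxb13 and Hoxd13. In KO animals 7 were higher and 1 lower, where 4.43% and 4.16% of all genes were called, and Hoxd13 was the gene called higher in wild type alone. By paralog number, 7 of the 11 posterior genes (numbers 9 to 13) were called higher in wild type animals, with a median log2 difference of 2.6. Of the posterior genes, Hoxa10, Hoxa11, Hoxa13, Hoxb13, Hoxd9, Hoxd10, Hoxd11 and Hoxd13 passed the filter on dim probes through colon pools alone. Such genes could hardly come out lower in colon at either stage. Hoxc10, Hoxc12, Hoxc13 and Hoxd12 were too dim to be tested, so the posterior share and median partly reflect the filter. None of the 6 anterior genes (numbers 1 to 3) was called, with a median of 0.03, and 1 of the 12 central genes (numbers 4 to 8) was called higher and 1 lower, with a median of 0.17. The median over all genes tested was 0.043.

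**Figure D1:**
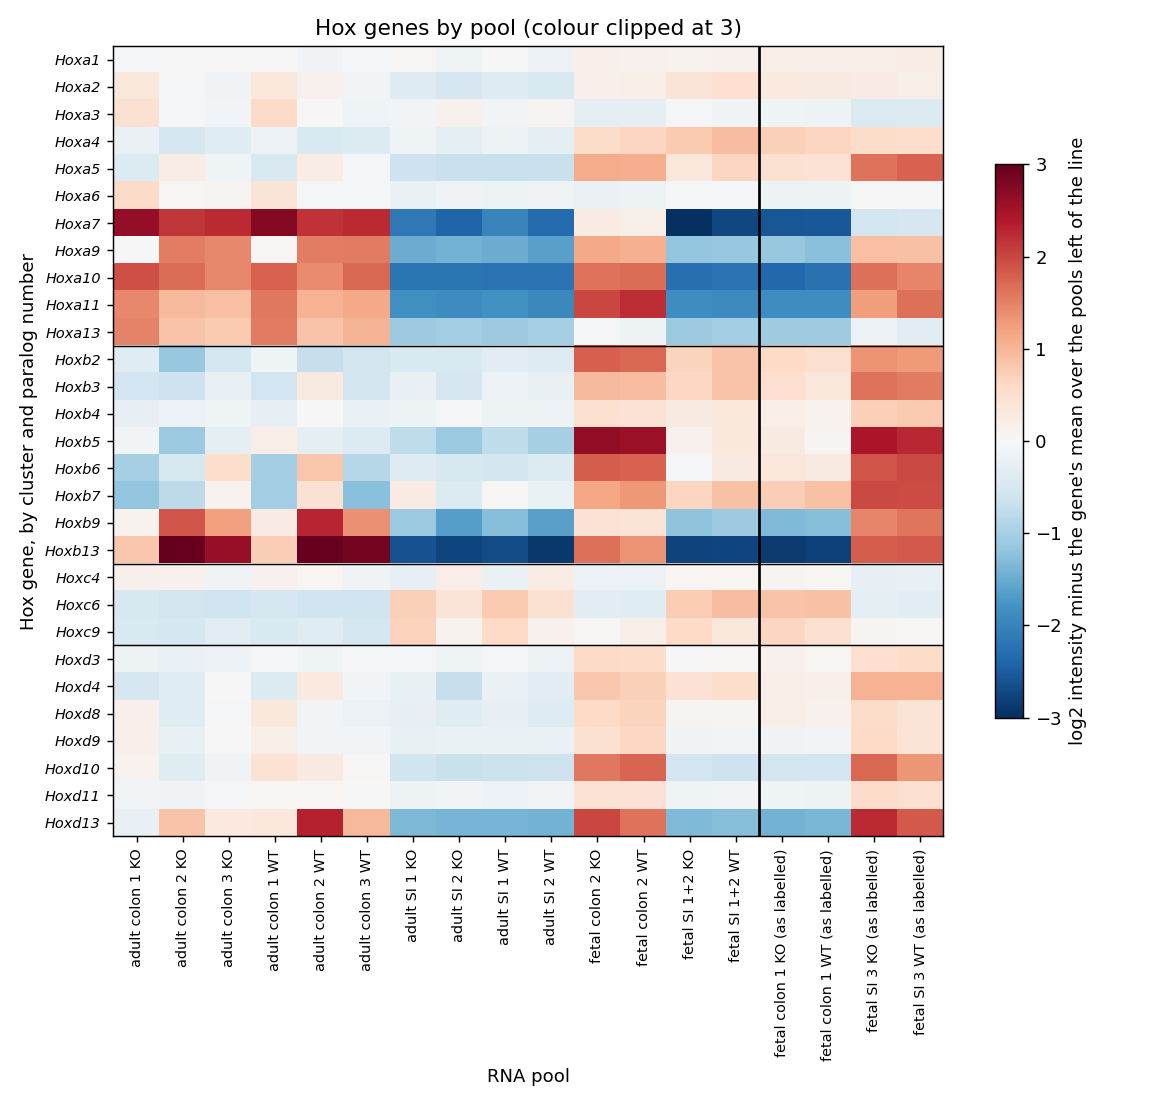
Level of each of the 29 Hox genes tested (rows, by cluster and paralog number) in each RNA pool (columns), as log2 intensity minus the gene's mean over the pools left of the vertical line. Pools right of the line are those of slide label 5639, under their own labels; red is higher and blue lower, and Hoxa7, Hoxa10, Hoxa11 and Hoxb13 are red in adult colon and blue in adult small intestine.

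Hoxa7, a central member of the A cluster, had levels of 14.26, 13.75 and 13.84 in KO colons and 14.36, 13.77 and 13.84 in wild type colons, against 9.48 and 9.21 in KO and 9.63 and 9.30 in wild type small intestines. The organs did not overlap in any pair. The wild type difference was 4.53 ± 0.199 on the log2 scale (limma standard error, adjusted p = 1.9e-06), a fold of 23.1.

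Hoxb13, a posterior member known from the hindgut and prostate, had levels of 10.62, 13.09 and 12.42 in KO colons and 10.55, 12.92 and 12.68 in wild type colons, against 7.19 and 7.05 in KO and 7.12 and 6.90 in wild type small intestines. Pair 1 of adult colon was the lowest in both genotypes and still lay above every small intestine pool. Wild type small intestine was not well above background on any array, so the fold is a lower bound against the dimmest signal well above background. The mean of the wild type colon pools was at least 32.5-fold higher (log2 difference 5.04 ± 0.636, limma adjusted p = 0.00132). This and later bounds are for pool means of the probe used and leave out the spread between pools and probes.

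Hoxa10 had levels of 11.07, 10.82 and 10.58 in KO colons and 10.92, 10.57 and 10.86 in wild type colons, against 6.96 and 6.96 in KO and 6.93 and 6.93 in wild type small intestines. Hoxa11 had levels of 10.25, 9.78 and 9.72 in KO colons and 10.40, 9.85 and 9.94 in wild type colons, against 6.98 and 6.92 in KO and 6.99 and 6.89 in wild type small intestines. Neither posterior gene was well above background in adult small intestine in either genotype. Wild type colon was at least 14.2-fold higher for Hoxa10 (limma adjusted p = 0.000112) and at least 8.45-fold higher for Hoxa11 (adjusted p = 1.59e-05).

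Hoxa13, which is required in the hindgut, had levels of 9.55, 8.93 and 8.86 in KO colons and 9.63, 8.94 and 9.10 in wild type colons, against 6.98 and 7.03 in KO and 6.98 and 7.07 in wild type small intestines. Hoxa9 had levels of 8.64, 10.16 and 10.07 in KO colons and 8.69, 10.17 and 10.18 in wild type colons, against 7.15 and 7.20 in KO and 7.13 and 7.0 in wild type small intestines. Hoxb9 had levels of 9.01, 10.78 and 10.13 in KO colons and 9.14, 11.18 and 10.27 in wild type colons, against 7.78 and 7.24 in KO and 7.63 and 7.26 in wild type small intestines. For all 3 genes every colon pool lay above every small intestine pool, and pair 1 of adult colon was the lowest colon pair for Hoxa9 and Hoxb9 and the highest for Hoxa13. Wild type differences were 2.20 ± 0.238 for Hoxa13 (at least 4.59-fold, limma adjusted p = 0.000553), 2.61 ± 0.414 for Hoxa9 (at least 6.06-fold, adjusted p = 0.00467) and 2.75 ± 0.492 for Hoxb9 (adjusted p = 0.00829).

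Hoxd13 had levels of 8.14, 9.22 and 8.65 in KO colons and 8.68, 10.67 and 9.32 in wild type colons, against 7.0 and 6.97 in KO and 6.97 and 6.94 in wild type small intestines. The mean of the wild type colon pools was at least 5.89-fold higher for the brighter probe (log2 difference 2.60 ± 0.626, limma adjusted p = 0.0323). The KO difference was 1.68 ± 0.626 (adjusted p = 0.16). The second Hoxd13 probe differed less between the organs, by 0.42 in adult KO, 0.88 in adult wild type and 0.7 in fetal wild type animals. Hoxd10 had levels of 7.72, 7.26 and 7.53 in KO colons and 8.07, 7.89 and 7.67 in wild type colons, against 7.02 and 6.96 in KO and 6.99 and 7.0 in wild type small intestines. The pools did not overlap, but the difference of 0.88 ± 0.293 in wild type animals did not pass the test (adjusted p = 0.106).

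The 1 gene that was lower in colon, Hoxc6, is outside the rule for named genes and is named after its values were seen. It had levels of 7.21, 7.15 and 7.11 in KO colons and 7.19, 7.10 and 7.10 in wild type colons, against 8.41 and 8.09 in KO and 8.48 and 8.15 in wild type small intestines. Wild type colon was not well above background, and wild type small intestine was at least 2.24-fold higher (log2 difference -1.19 ± 0.14, limma adjusted p = 0.000877).

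**Figure D2:**
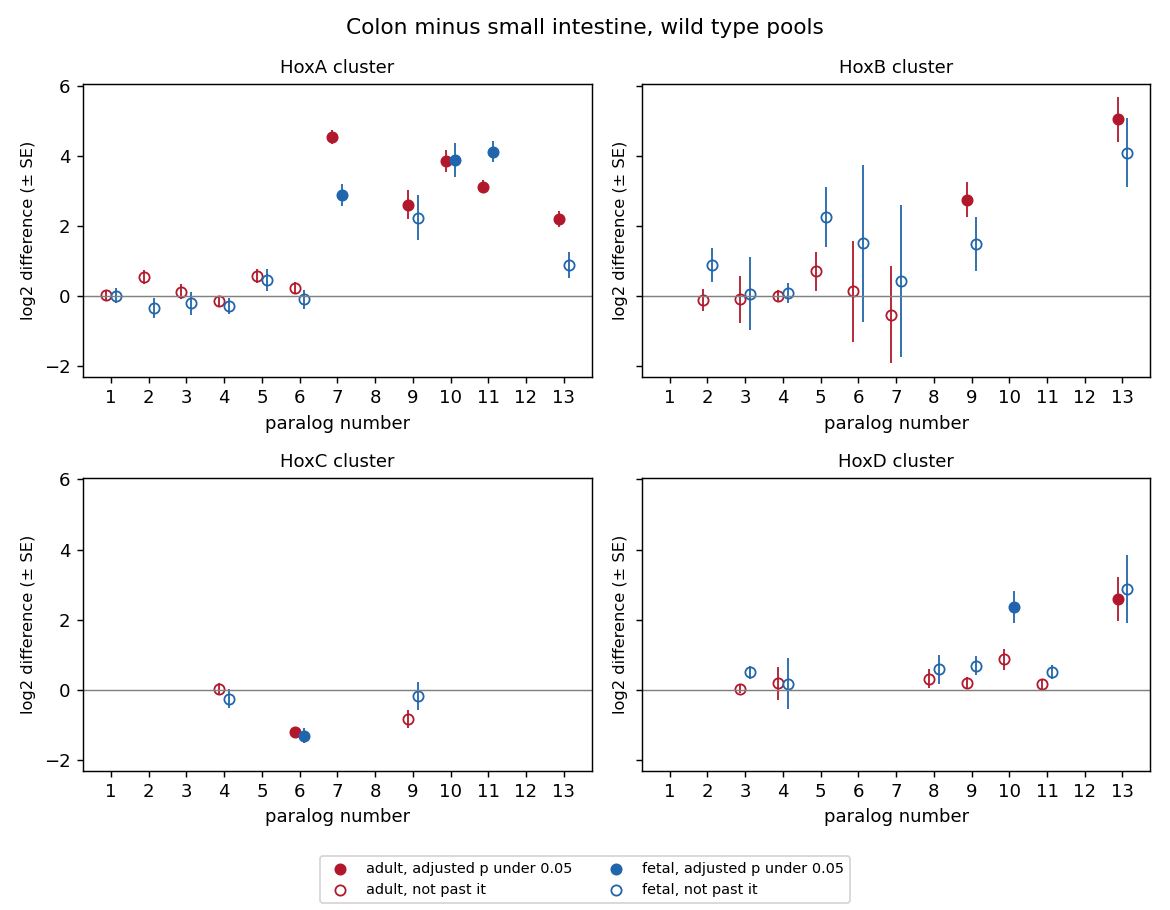
Colon minus small intestine in wild type pools (log2 difference, bars ± limma standard error) against paralog number, one panel per cluster, adult in red and fetal in blue. Filled points passed an adjusted p of 0.05; in the A cluster they are numbers 7, 9, 10, 11 and 13 in adult and 7, 10 and 11 in fetal pools.

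Within slide label 8216, which held a pair of each adult organ, the called Hox genes kept their sign (8 of 8 in KO and 9 of 9 in wild type pools), but these pools are part of the fit that called them, so this is a description and no separate check. Without adult small intestine pair 1, 5 Hox genes were called in KO and 5 in wild type animals, and without pair 2 of that group 5 were called in KO animals. In wild type animals Hoxb9 and Hoxd13 lost their calls without either small intestine pair or without adult colon pair 3, and Hoxa9 without either small intestine pair. Hoxc6, the gene lower in colon, lost its call without small intestine pair 1 in both genotypes (limma adjusted p = 0.0778 in KO and 0.0554 in wild type animals). In KO animals Hoxa9 and Hoxb9 lost their calls without either small intestine pair or without adult colon pair 3, and Hoxb13 without small intestine pair 2 (limma adjusted p = 0.0562). Of 17 mesenchyme and smooth muscle genes, 8 were also higher in adult wild type colon. The log2 of the summed level of all 17 was 18.03 to 18.67 over adult colon pools of both genotypes, against 16.64 to 17.12 in adult small intestine. The part of this in the Hox differences was not tested.

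In fetal wild type animals, 4 Hox genes were higher in colon and 1 was lower, where 1.51% of all genes were called higher and 2.74% lower. In fetal KO animals 5 were higher and 1 lower, where 2.98% and 3.68% of all genes were called. Hoxa11 had levels of 10.82 in the KO colon and 11.03 in the wild type colon, against 6.94 in the KO and 6.90 in the wild type small intestine (at least 16.8-fold in wild type, limma adjusted p = 0.000172). Hoxa10 had levels of 10.76 in the KO and 10.81 in the wild type colon, against 6.88 and 6.93 in the KO and wild type small intestine (at least 14.3-fold in wild type, adjusted p = 0.0037). Both genes were not well above background in fetal small intestine.

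Hoxa7 had levels of 11.85 in the KO and 11.78 in the wild type fetal colon, against 8.62 in the KO and 8.89 in the wild type small intestine, a wild type difference of 2.89 ± 0.308 (limma adjusted p = 0.00154). Hoxd10 had levels of 9.21 in the KO and 9.37 in the wild type colon, against 7.05 in the KO and 7.01 in the wild type small intestine, at least 4.96-fold in wild type animals (adjusted p = 0.0238). Hoxd13 had levels of 10.36 in the KO and 9.98 in the wild type colon, against 7.04 in the KO and 7.08 in the wild type small intestine, and its wild type difference of 2.89 ± 0.969 did not pass (adjusted p = 0.153). The gene called in addition in KO animals was Hoxb13, which was not well above background in fetal KO small intestine and was at least 21.4-fold higher in fetal KO colon (limma adjusted p = 0.034), and the gene that was lower was Hoxc6 in both genotypes (-1.30 ± 0.217 in wild type, adjusted p = 0.0134).

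Fetal small intestine was on slide label 5605 and fetal colon on 7701, so organ and slide cannot be told apart in this comparison. Fetal calls rested on 1 pair in each organ. They numbered 14 in wild type and 16 in KO animals without adult colon pair 1, which also enters the shared estimate of the spread, and 3 in each genotype without adult small intestine pair 1, adult small intestine pair 2 or adult colon pair 3. Of 12 enteric neuron and glia genes, 5 were also higher in fetal wild type colon, as were 5 of 17 mesenchyme and smooth muscle genes, and the part of this in the Hox differences was not tested. Of 6 urogenital and limb bud genes none was called between the fetal organs. The log2 of their summed level was 13.1 to 13.2 in fetal colon, against 11.22 to 11.32 in fetal small intestine, and their part was not tested either. The adult difference between the organs was tested against the fetal one. No Hox gene passed by limma in either genotype, where 1.26% of all genes did in wild type and 1.59% in KO animals, and 5 in wild type and 6 in KO animals had an unadjusted p under 0.05, where 9.95% and 12% of all genes did. The closest was Hoxa7 (adult minus fetal difference 1.64 ± 0.367, adjusted p = 0.0877), and without adult colon pair 1, 7 Hox genes passed.

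Between the stages, adult colon differed from fetal colon in 9 Hox genes in each genotype. In wild type animals 2 were higher and 7 lower in adult colon, where 5.17% of all genes were called higher and 6.5% lower, and in KO animals 2 were higher and 7 lower, where 5.75% and 7.7% were called. Hoxb5, a central member known from vagal neural crest and the enteric nervous system, had levels of 9.15, 8.11 and 8.94 in adult KO colons and 9.44, 8.93 and 8.81 in adult wild type colons, against 11.88 in the fetal KO and 11.79 in the fetal wild type colon. Hoxb2, an anterior member, had levels of 8.80, 8.02 and 8.63 in adult KO colons and 9.02, 8.47 and 8.60 in adult wild type colons, against 10.95 in the fetal KO and 10.88 in the fetal wild type colon. Every adult pool lay below both fetal pools for these genes, and in wild type animals Hoxb5 fell by 2.73 ± 0.691 (limma adjusted p = 0.037) and Hoxb2 by 2.18 ± 0.396 (adjusted p = 0.00979) on the log2 scale.

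A second Hoxb2 probe, on the opposite strand of mm8 chromosome 11, did not follow the first, with a wild type difference of 0.05 between adult and fetal colon. Hoxd10 also fell in adult colon, to 8.07, 7.89 and 7.67 in wild type pools, against 9.37 in the fetal wild type pool (-1.49 ± 0.37, limma adjusted p = 0.0346). Hoxa7 rose in adult colon, to 14.36, 13.77 and 13.84 in wild type pools, against 11.78 in the fetal wild type pool (2.21 ± 0.252, adjusted p = 0.00127), and the other gene that rose was Hoxa13 (1.29 ± 0.302, adjusted p = 0.0273). The remaining genes that fell were Hoxa4, Hoxa5 and Hoxa11, by 0.96 to 1.19, and Hoxd3, which was not well above background in adult colon and was at least 1.48-fold lower there in wild type animals. Hoxd3 passed the filter on dim probes through fetal colon pools alone, so it could hardly come out higher in adult colon. Hoxd13 differed by -0.42 ± 0.792 in wild type animals and did not pass (adjusted p = 0.827), and its second probe had the opposite sign, at 0.21.

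**Figure D3:**
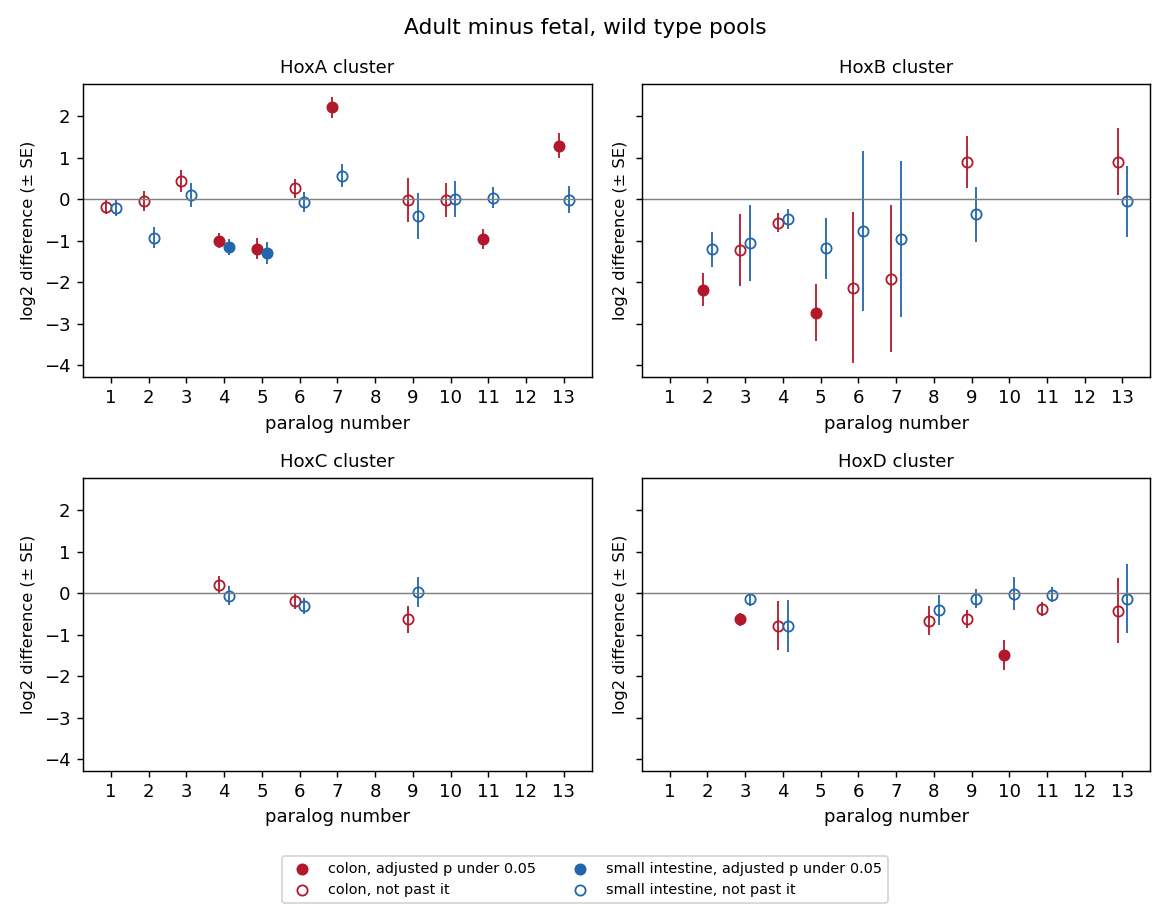
Adult minus fetal in wild type pools (log2 difference, bars ± limma standard error) against paralog number, one panel per cluster, colon in red and small intestine in blue. Filled points passed an adjusted p of 0.05; in the D cluster all 7 colon points lie below 0.

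By cluster, the median wild type difference between adult and fetal colon was -1.56 over 8 B genes and -0.63 over 7 D genes, against -0.024 over 11 A genes, -0.2 over 3 C genes and -0.018 over all genes tested. Second probes of Hoxb2, Hoxb3 and Hoxb6 differed by 0.05, -0.78 and -0.13, against -2.18, -1.22 and -2.12 for the brighter ones. The second Hoxb9 probe differed by 1.59, against 0.9, so the B median depends on the choice of probe. Within slide label 7701, which held a pair of each stage, the sign was that of the fit for 9 of 9 called genes in each genotype, which is likewise no separate check, since it holds the fetal colon pair of the fit. Without adult colon pair 1, 14 Hox genes were called in KO and 16 in wild type animals. The count was 2 in KO and 1 in wild type animals without either adult small intestine pair, and 4 in KO and 2 in wild type animals without adult colon pair 3. Of 12 enteric neuron and glia genes, 9 were also lower in adult wild type colon, as were 4 of 17 mesenchyme and smooth muscle genes, while 8 of 12 epithelium genes were higher. The part of these in the Hox differences was not tested.

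In small intestine, 2 Hox genes were lower in adult than in fetal wild type animals, where 4.47% of all genes were, and none was higher, where 3.2% were. In KO animals 1 was lower, where 4.35% were, and none was higher, where 3.28% were. Hoxa4 had levels of 7.62 and 7.47 in adult KO and 7.60 and 7.47 in adult wild type small intestines, against 8.52 in the fetal KO and 8.68 in the fetal wild type pool (wild type difference -1.15 ± 0.197, limma adjusted p = 0.0101). Hoxa5, known for its role in lung and gut mesenchyme, had levels of 7.34 and 7.30 in adult KO and 7.30 and 7.31 in adult wild type small intestines, against 8.32 in the fetal KO and 8.61 in the fetal wild type pool (-1.30 ± 0.268, adjusted p = 0.0224). Both adult pools lay below the fetal pool for each gene. The fetal pools were on slide label 5605 and the adult ones on 7702 and 8216, so stage and slide cannot be told apart here. No Hox gene was called in wild type animals without either adult small intestine pair or without adult colon pair 3, and 6 were without adult colon pair 1. The second Hoxa4 probe differed by -0.2 between the wild type stages, against -1.15 for the brighter one, and by -0.22, against -1.0, in colon. Of 12 epithelium genes, 5 were also higher in adult wild type small intestine, while 1 of 17 mesenchyme and smooth muscle genes (Vim) and 1 of 12 enteric neuron and glia genes (S100b) were lower, and their part in the Hox differences was not tested.

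Between KO and wild type pools, 2 of 29 Hox genes were lower in adult KO colon and none was higher, where 4.59% of all genes were lower and 2.91% higher. By limma, 7 of the 29 had an unadjusted p under 0.05 there, where 23.8% of all genes did, so the Hox share was near that of all genes. The difference was negative for 21 of the 29 Hox genes, and for 9719 of 18957 genes in all. By pair, 19, 23 and 14 of the 29 were lower in the KO pool of adult colon pairs 1, 2 and 3. Hoxd13 had levels of 8.14, 9.22 and 8.65 in KO colons, against 8.68, 10.67 and 9.32 in wild type colons, and was lower in 3 of 3 pairs (-0.89 ± 0.167, limma adjusted p = 0.0176). Hoxd10 had levels of 7.72, 7.26 and 7.53 in KO colons, against 8.07, 7.89 and 7.67 in wild type colons, and was lower in 3 of 3 pairs (-0.37 ± 0.0781, adjusted p = 0.0263). The genotypes overlapped between pairs for Hoxd13 and Hoxd10, and a second Hoxd13 probe was lower by the smaller difference of -0.45. Without adult colon pair 1 neither gene passed, with adjusted p of 0.1 for Hoxd13 and 0.157 for Hoxd10, and without pair 2, or without either adult small intestine pair, Hoxd13 alone did.

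**Figure D4:**
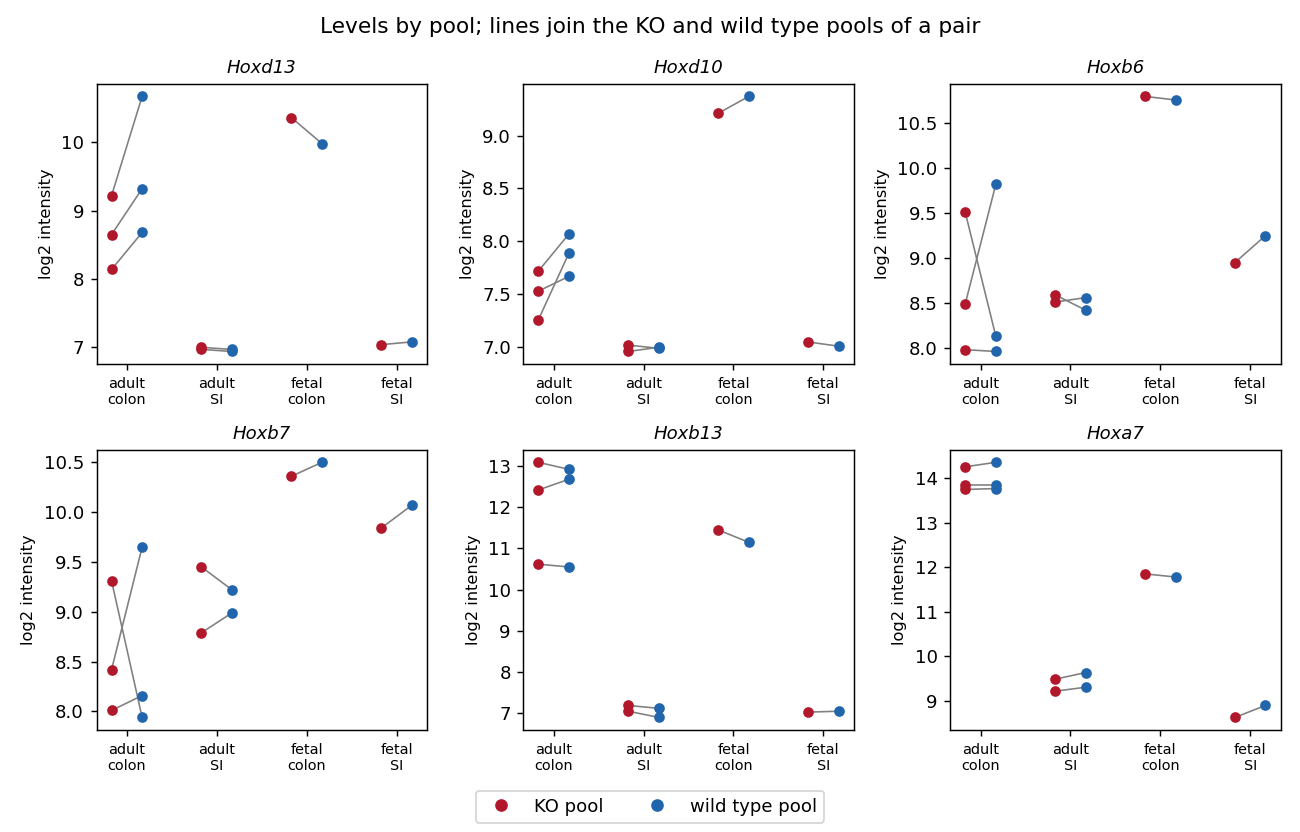
Levels of Hoxd13, Hoxd10, Hoxb6, Hoxb7, Hoxb13 and Hoxa7 (log2 intensity, each panel with its own axis) by group (SI, small intestine), with KO pools in red left of wild type pools in blue and a line for each pair. Hoxd13 is lower in the KO pool of all 3 adult colon pairs, and for Hoxb6 and Hoxb7 the lines of pairs 2 and 3 cross there.

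Beside this, 3 of 17 mesenchyme and smooth muscle genes and 3 of 12 enteric neuron and glia genes were lower in adult KO colon. The log2 of the summed level of the first list was 18.08, 18.03 and 18.47 in KO colons, against 18.40, 18.45 and 18.67 in wild type colons. That of the second list was 12.88, 12.42 and 12.70, against 13.15, 12.75 and 12.93. Both lists were lower in the KO pool of all 3 pairs, and their part in the Hoxd10 and Hoxd13 differences was not tested. No Hox gene was called in adult small intestine, fetal colon or fetal small intestine, where 0.427%, 0.422% and 0.364% of all genes were, or in the mean of the 4 groups, where 1.01% were. By limma, 0, 1, 4 and 1 Hox genes had an unadjusted p under 0.05 in these comparisons, where 9.06%, 4.11%, 4.94% and 10.6% of all genes did. Differences of the KO effect were tested after the data were seen, and no Hox gene passed in 4 such contrasts. The KO effect on Hoxd13 was not shown to differ between adult colon and fetal colon (-1.27 ± 0.334, limma adjusted p = 0.237) or adult small intestine (-0.92 ± 0.264, adjusted p = 0.324).

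Genes of the wider Hox system were set beside the members. Of 6 ParaHox and Evx genes, Evx1 at the end of the A cluster was higher in adult wild type colon (limma, 1.02 ± 0.2, adjusted p = 0.0128) and Pdx1, which acts in the duodenum and pancreas, was lower (-0.89 ± 0.23, adjusted p = 0.0431). Of 13 retinoic acid genes, 1 was lower, Aldh1a3, which makes retinoic acid (-2.76 ± 0.612, adjusted p = 0.0228). None of 25 Polycomb and Trithorax genes was called between the adult wild type organs.

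Of 19 genes next to the clusters, Ttll6 and Hibadh were higher in adult wild type colon and Skap1 lower. Ttll6, which lies beyond Hoxb13, differed by 3.49 ± 0.194 (limma adjusted p = 8.39e-06). It was also higher in fetal wild type colon (1.85 ± 0.3, adjusted p = 0.0114).

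The pools of slide label 5639 went against their labels. In the pool labelled fetal small intestine 3, 28 of 29 Hox genes in KO and 27 of 29 in wild type were nearer to fetal colon 2 than to fetal small intestine. In the pool labelled fetal colon 1, 27 of 29 in KO and 25 of 29 in wild type were nearer to fetal small intestine. Over 18928 other genes, 13486 in KO and 12605 in wild type lay nearer fetal colon 2 in the first of these pools. In the second, 14804 in KO and 14565 in wild type lay nearer fetal small intestine. Of the Hox genes that differed by at least 1 on the log2 scale between the other fetal organs, 13 of 13 in KO and 11 of 11 in wild type went this way in each pool.

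Hoxa10 had levels of 6.79 in the KO and 6.90 in the wild type pool labelled fetal colon 1, and of 10.79 in the KO and 10.61 in the wild type pool labelled fetal small intestine 3. Hoxb13 had levels of 6.93 and 6.99 in the KO and wild type pools labelled fetal colon 1, and of 11.61 and 11.64 in those labelled fetal small intestine 3. Hoxd13 had levels of 6.94 and 6.98 in the KO and wild type pools labelled fetal colon 1, and of 10.59 and 10.21 in those labelled fetal small intestine 3. Hoxc6, which was lower in fetal colon 2, had levels of 8.55 and 8.58 in the pools labelled fetal colon 1, and of 7.43 and 7.35 in those labelled fetal small intestine 3. The mean distance of the Hox genes in the KO pool labelled fetal colon 1 was 1.30 to fetal colon 2 and 0.101 to fetal small intestine. Other genes that differed by at least 1 went the same way. For labelled fetal small intestine 3, 2998 of 3271 in KO and 2419 of 2715 in wild type lay nearer fetal colon 2. For labelled fetal colon 1, 3174 of 3271 in KO and 2640 of 2715 in wild type lay nearer fetal small intestine. No cause of this was tested.

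**Figure D5:**
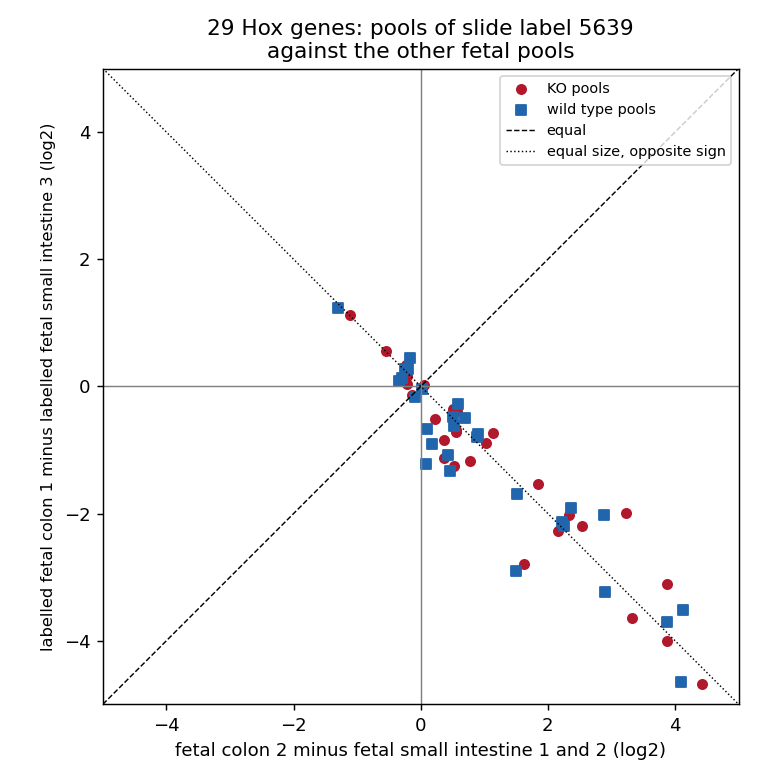
Difference between the pools labelled fetal colon 1 and fetal small intestine 3 on slide label 5639 (vertical axis, log2) against the difference between fetal colon 2 and fetal small intestine 1 and 2 (horizontal axis, log2), for 29 Hox genes, KO pools as circles and wild type pools as squares. The points follow the dotted line of equal size and opposite sign rather than the dashed line of equality.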

How the data were processed

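Two-colour Agilent arrays measured RNA pools of whole colon and small intestine. Per the file headers, the authors extracted spot intensity with Agilent Feature Extraction 9.5.3, and the deposited mean and background intensity of each channel are linear values. Coordinates are of build mm8.

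From these, limma 3.58.1 under R 4.3.3 corrected background (normexp, offset 50), normalized by loess within and Aquantile between arrays, and took log2 intensity per channel, averaged over a dye swap. Probes had to exceed background clearly on each array of some group and genotype, and a gene took the value of its brightest such probe. One fit had a term per group and genotype, with the pair as random block (correlation 0.911), two-sided tests and Benjamini-Hochberg adjustment over 18957 genes. Nothing says that pools of a group came from separate litters, so p-values measure the spread between these adult pools. The fetal groups gave no spread of their own. A bound sets the brighter group's mean against the lowest signal well above background on each dim array, and does not allow for the spread between pools. The number of arrays limits the precision. The steps were tested on simulated data.

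Named genes were Hoxd10, Hoxd13, up to 8 Hox genes for the adult organ difference, up to 4 for the fetal one and each stage, and all called between genotypes. The members and lists were chosen with earlier results of these data known. The adult colon KO comparison and the differences of KO effects were added after the data were seen. One result for a listed gene outside the Hox clusters is not reported here.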

Additional observations from a re-analysis of the deposited data

Results flagged for a closer look

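In the pools labelled fetal small intestine 3, which enter no comparison, 8 Hox genes were well above background in all 4 channels and in none of the 8 channels of fetal small intestine pairs 1 and 2. The same count over all genes was not made. All 8 passed the filter on dim probes through colon pools alone, which favours genes that are dim in small intestine. Their mean levels over the KO and wild type pools were 10.70 for Hoxa10, 10.27 for Hoxa11, 7.83 for Hoxa13, 11.63 for Hoxb13, 9.15 for Hoxd10, 7.56 for Hoxd11, 7.64 for Hoxd3 and 7.76 for Hoxd9.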

How the results depend on the processing

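Counts below are of Hox genes called. With the scanner's processed signals they were 14 for the adult organ difference in KO, 12 and 10 for the fetal one in KO and wild type, 5 and 5 for the small intestine stages in KO and wild type, 1 for KO in adult colon and 1 for the stage difference of the organ difference. Without background subtraction they were 2 for the KO small intestine stages and 1 for KO in adult colon, and without a filter 3 and 0. The strict filter left 5 Hox genes and gave 1 for each organ difference, 0 for the small intestine stages, 3 for the colon stages in each genotype and 0 for KO in adult colon. The mean of all probes gave 2 for the KO small intestine stages. With slide label as random block the counts were 15 for the adult organ difference in each genotype, 2 for the KO small intestine stages, 25 and 23 for the colon stages in KO and wild type, and 2 for the stage difference. With fetal small intestine pairs separate they were 13 and 12 for the fetal organ difference in KO and wild type, 5 and 5 for the small intestine stages, 4 for KO in adult colon and 1 for the stage difference. With slide label 5639 in its labelled groups they were 2 and 5 for the adult and 0 and 0 for the fetal organ difference in KO and wild type, 2 for the KO small intestine stages and 4 and 4 for the colon stages. Each genotype alone gave 0 and 1 for the small intestine stages in KO and wild type and 5 and 5 for the colon stages. A trended and robust prior gave 4 for KO in adult colon, and differences within pairs gave 1. The causes were not tested.

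With the replicate block the counts were 3 and 3 for the fetal organ difference in KO and wild type, 0 for the KO small intestine stages, 4 and 3 for the colon stages in KO and wild type, and 1 for KO in adult colon. The numbers are not stated to pair the pools, and deviations of same-numbered adult pools correlated at 0.0716 and 0.199 across genes. Slide as a fixed block was not run, since each contrast would rest on 1 pair a side.

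Leaving out a replicate gave 5 to 11 and 5 to 13 for the adult organ difference in KO and wild type, 3 to 16 and 3 to 14 for the fetal one, 0 to 5 and 0 to 6 for the small intestine stages, 2 to 14 and 1 to 16 for the colon stages, 0 to 2 for KO in adult colon, 0 to 0 for the mean KO effect and 0 to 7 for the stage difference.

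Of the log2 differences of named genes, 1047 of all alternatives kept direction and side of the threshold, 26 gained and 141 lost the call, and 23 reversed. With slide label 5639 as labelled, the fetal organ difference reversed in KO for Hoxd10 (-0.055), Hoxd13 (-0.17), Hoxb13 (-0.13) and Hoxa10 (-0.063) and in wild type for Hoxd13 (-0.17), the colon stages for Hoxa11 (1.03 in KO, 1.08 in wild type) and Hoxd13 (0.017 in KO, 1.08 in wild type), and the stage difference for Hoxd10 (0.66) and Hoxd13 (2.77). The other reversals were of uncalled Hoxd10 and Hoxd13 values. For the small intestine stages Hoxd10 reversed with slide as random block (0.012 in KO, 0.058 in wild type) and the replicate block (0.027 in KO, 0.072 in wild type), and Hoxd13 without fetal small intestine replicate 2 (leave-one-out range -0.19 to 0.072 in KO, -0.27 to 0.014 in wild type). For the wild type colon stages Hoxd13 reversed with the replicate block (0.022) and without adult colon replicate 1 (leave-one-out range -0.97 to 0.02), and for the stage difference with processed signals (0.93), slide as random block (0.18), the replicate block (0.53) and without adult colon replicate 1 (leave-one-out range -0.85 to 0.15).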

Other observations

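Hoxb6 and Hoxb7, neighbours in the B cluster that were chosen after their values were seen, differed between KO and wild type in opposite directions in different adult colon pairs. Hoxb6 had levels of 7.98, 8.49 and 9.51 in KO colons, against 7.96, 9.82 and 8.13 in wild type colons, and Hoxb7 had levels of 8.01, 8.42 and 9.31, against 8.16, 9.65 and 7.94. KO minus wild type was -1.32 for Hoxb6 and -1.22 for Hoxb7 in pair 2, and 1.38 and 1.37 in pair 3. The mean difference over the adult colon pairs was 0.02 for this Hoxb6 probe and 0.03 for a second one, whose values by pair are not given here.

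The log2 of the summed level of 8 pancreas genes was 12.47 to 18.63 over adult colon pools, against 10.69 to 16.87 over adult small intestine pools. It was 10.69 in fetal colon, against 11.53 to 11.70 in fetal small intestine. Pair 2 of adult colon had the lowest levels, 12.47 in the KO and 12.81 in the wild type pool. Pair 1 had 15.42 in the KO and 18.16 in the wild type pool, and pair 3 had 15.59 and 18.63. The part of this in the KO differences of adult colon was not tested.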
